A study of Junonia coenia with 24 samples.

Results

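Accessible chromatin of the hindwing of the buckeye butterfly Junonia coenia was compared between the libraries labelled pre pupa (3 libraries, here the prepupal libraries) and those labelled 72 hours after pupation (3 libraries, here the 72 h libraries). These 6 libraries are part of a series of 24, with 3 libraries for each of 8 groups, which cover forewing and hindwing at 4 labelled stages. The remaining hindwing groups are the 5th instar, the last larval stage, and 6 days after pupation, whose titles give day 7 instead. Each library was made from whole wing tissue of animals reared at about 27 °C. No genotype, treatment or sex is labelled for any group. The assay was ATAC-seq, in which the transposase Tn5 cuts and tags DNA where it is not wrapped in nucleosomes, so that the number of reads in an interval reports how accessible it was. All intervals of the hindwing count table that passed a filter on low counts were compared: 258640 of 488675 hindwing intervals, out of 989233 intervals in both wings' tables. They lay on 893 of the 959 contigs in the table and had a median width of 251 bp, against 137 bp for all hindwing intervals. The files pair no interval with a gene, and no source used here gives the genome build, so intervals are named by contig and by positions counted from 1.

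Between these stages the wing disc of the last caterpillar stage becomes the wing of the pupa. The prepupa is the short phase after feeding ends, when ecdysteroid hormone is high and the wing discs turn outwards. In the pupal wing the epithelium then forms scale precursor cells, which later build the coloured scales. Ecdysteroids act through a nuclear receptor that contains the protein EcR, which binds DNA and switches target genes on or off. The title of the series names EcR and spineless, a transcription factor known in insects for roles in antennal, leg and bristle patterning, and in butterflies for the colour of the wing scales. Open intervals of the kind counted here commonly include promoters and enhancers. In whole tissue, a change in the number of cells of one type and a change in accessibility within cells cannot be told apart.

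Reads counted in hindwing intervals amounted to 14795457, 11955504 and 13079163 in prepupal replicates 1 to 3 and to 10652323, 8183863 and 8231922 in the 72 h replicates. The median tested interval held 18 reads per library. The labels number the replicates without saying whether each came from its own animals, so the p-values below rest on the spread among these libraries, part or all of which may be technical. Prepupal replicate 2 stood apart from the others of its group. Its Spearman correlation with replicates 1 and 3 was 0.753 and 0.708, against 0.844 between replicates 1 and 3. Where the 6 libraries averaged 100 CPM (read counts scaled to a common library size) or more, its values had a median of 2.46 times the mean of replicates 1 and 3, whereas below 1 CPM they had a median of 0.810 times that mean. The stage labels did not line up between the wings. Over 116694 intervals matched between the tables, the hindwing 72 h profile, taken as the departure from the mean of the 4 labelled stages, had a Pearson r of 0.897 with the forewing profile labelled 6 days and of −0.345 with the forewing profile labelled 72 h. The prepupal hindwing profile had r = 0.572 with the forewing profile labelled 72 h and r = 0.234 with the prepupal forewing profile. These correlations run across intervals, which are not independent replicates. All stage names below are therefore those of the labels.

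Accessibility differed between the prepupal and 72 h hindwing at 53485 of the tested intervals (20.7%), with more intervals higher than lower at 72 h after composition scaling. At an adjusted p under 0.05 in edgeR's quasi-likelihood test with Benjamini-Hochberg adjustment, 33430 intervals (12.9% of those tested) rose to 72 h and 20055 (7.75%) fell. The median log2 change was 1.74 among the rises and −1.65 among the falls, against −0.13 over all tested intervals. Changes of 4-fold or more were estimated at 12072 rises and 6226 falls, and changes of 16-fold or more at 443 rises and 541 falls. All 3 libraries of one group lay above all 3 of the other at 93875 intervals (36.3%), higher at 72 h for 18.2% and lower for 18.1%. Among called intervals the groups did not overlap for 31018 rises (92.8%) and 18804 falls (93.8%). Without prepupal replicate 2, 59709 of 289536 intervals (20.6%) changed, with 38559 (13.3%) higher and 21150 (7.30%) lower. Of the 33430 rises and 20055 falls, 91.3% and 77.9% were also called without that library. The number of falls dropped to 12648 and 12010 without prepupal replicates 1 and 3 and to 11071, 12608 and 18134 without 72 h replicates 1, 2 and 3. All calls together dropped to 35581 and 35212 without prepupal replicates 1 and 3.

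The balance of rises and falls depended on the scaling of the libraries. The 72 h libraries placed 32.3%, 30.1% and 30.8% of their reads in the 1% of intervals with the most reads, and the prepupal libraries 16.5%, 27.6% and 17.1%. All 72 h libraries were above all prepupal libraries in this share, with prepupal replicate 2 nearest to them (two-sided exact permutation test, p = 0.1, the smallest that 3 against 3 can give). The 72 h libraries had no read at 10.9%, 13.0% and 12.3% of the hindwing intervals, and the prepupal libraries at 1.27%, 4.60% and 2.54%. The TMM factors, which correct for such differences in composition, were 0.734 to 0.802 at 72 h and 1.25, 0.918 and 1.22 in the prepupa. With library totals alone in their place, the balance turned: 20302 intervals (7.85%) were higher and 62784 (24.3%) lower, and the median log2 change of all intervals moved to −0.66. With offsets fitted by loess along the mean level, 32617 (12.6%) were higher and 22921 (8.86%) lower. Of the 33430 intervals that rose, 20294 were also called higher with library totals alone, and of the 20055 that fell, all were also called lower. No interval called in one direction under TMM was called in the other under either scaling. Library totals alone lower every log2 change, because all 72 h factors were below all prepupal factors. That falls stayed falls under them was therefore set in advance.

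The intervals with the largest fold change were chosen, 10 in each direction, among called intervals that reached a mean of 5 CPM in either group and whose prepupal and 72 h libraries did not overlap, so the separation of the groups at these intervals is part of the choice. The 10 largest rises were at intervals of 248 to 967 bp. Their group means were 0.0614 to 7.775 CPM in the prepupa and 12.07 to 297.8 CPM at 72 h. At 000114F, 1397733 to 1398221 (489 bp), the prepupal libraries held 1.72, 3.10 and 2.66 CPM and the 72 h libraries 145.6, 118.6 and 130.5 CPM. Every 72 h library was far above every prepupal library, and the group means of 2.49 ± 0.71 and 132 ± 13.5 CPM (SD, n = 3) differed 52.8-fold (log2 5.73, SE 0.39, adjusted p 7.465e-08 by edgeR). The 5th-instar and 6 d hindwing had means of 4.37 and 7.497 CPM there.

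At 000395F, 118191 to 119157, the prepupal libraries held 5.65, 6.60 and 6.78 CPM and the 72 h libraries 286.7, 246.2 and 282.9 CPM. The groups were again widely separate, and the change was 42.8-fold (log2 5.42, SE 0.35, adjusted p 7.465e-08 by edgeR). At 000002F, 5773554 to 5774423, the prepupal values were 9.28, 7.41 and 6.64 CPM and the 72 h values 303.1, 225.3 and 365.0 CPM (log2 5.25, SE 0.37, adjusted p 7.465e-08 by edgeR). This interval had the highest 72 h level of the 10, at 298 ± 70.0 CPM (SD, n = 3). At 000191F, 579825 to 580589, the values were 6.88, 9.01 and 5.74 CPM in the prepupa and 288.1, 251.6 and 250.6 CPM at 72 h. Means at 000191F were 18.0 CPM in the 5th instar and 13.4 CPM at 6 d, so the signal stood out in the 72 h libraries alone among the 4 hindwing groups.

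Another 3 rises had low values in all prepupal libraries. At 000161F, 930535 to 931023, 1.29, 2.90 and 1.47 CPM became 85.9, 82.0 and 96.2 CPM. At 000098F, 887940 to 888499, 2.89, 2.70 and 3.36 CPM became 113.3, 103.2 and 132.0 CPM. At 000127F, 496496 to 497077, 2.83, 2.60 and 2.87 CPM became 107.5, 94.3 and 95.1 CPM. In each of these intervals all 72 h libraries lay close together and far above all prepupal libraries.

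The remaining 3 of the 10 rises rested on fewer reads. At 000341F, 157074 to 157349, the prepupal libraries held 0, 0.60 and 0.21 CPM and the 72 h libraries 4.13, 21.7 and 10.35 CPM. At 000339F, 224865 to 225290, they held 0.676, 0 and 0.909 CPM against 28.9, 16.8 and 28.4 CPM. The largest fitted change of all, at 000335F, 222746 to 222993, came from 3 prepupal and 281 reads at 72 h. Its 72 h libraries did not resemble each other, with 19.3, 22.9 and 0.328 CPM, against 0.184, 0 and 0 CPM in the prepupa. The ratio of the groups' read counts, scaled for library size, was 196, with a counting interval of 66.2 to 954 (95%, counting error only). The fitted log2 changes of these weak intervals moved with single libraries, to 9.89 at 000335F without prepupal replicate 1, and at 000341F from 5.62 to 6.73 without prepupal replicate 2, 4.92 without prepupal replicate 1 and 4.89 without 72 h replicate 2. All 10 rises had their highest mean of the 4 hindwing groups at 72 h, and all 10 were also called without prepupal replicate 2. Between the 5th instar and 6 d, where 7.76% of all tested intervals were higher and 14.5% lower at 6 d, none of the 10 was called higher and 1, 000341F, was called lower (log2 −3.05, adjusted p 0.0097 by edgeR).

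**Figure D1:**
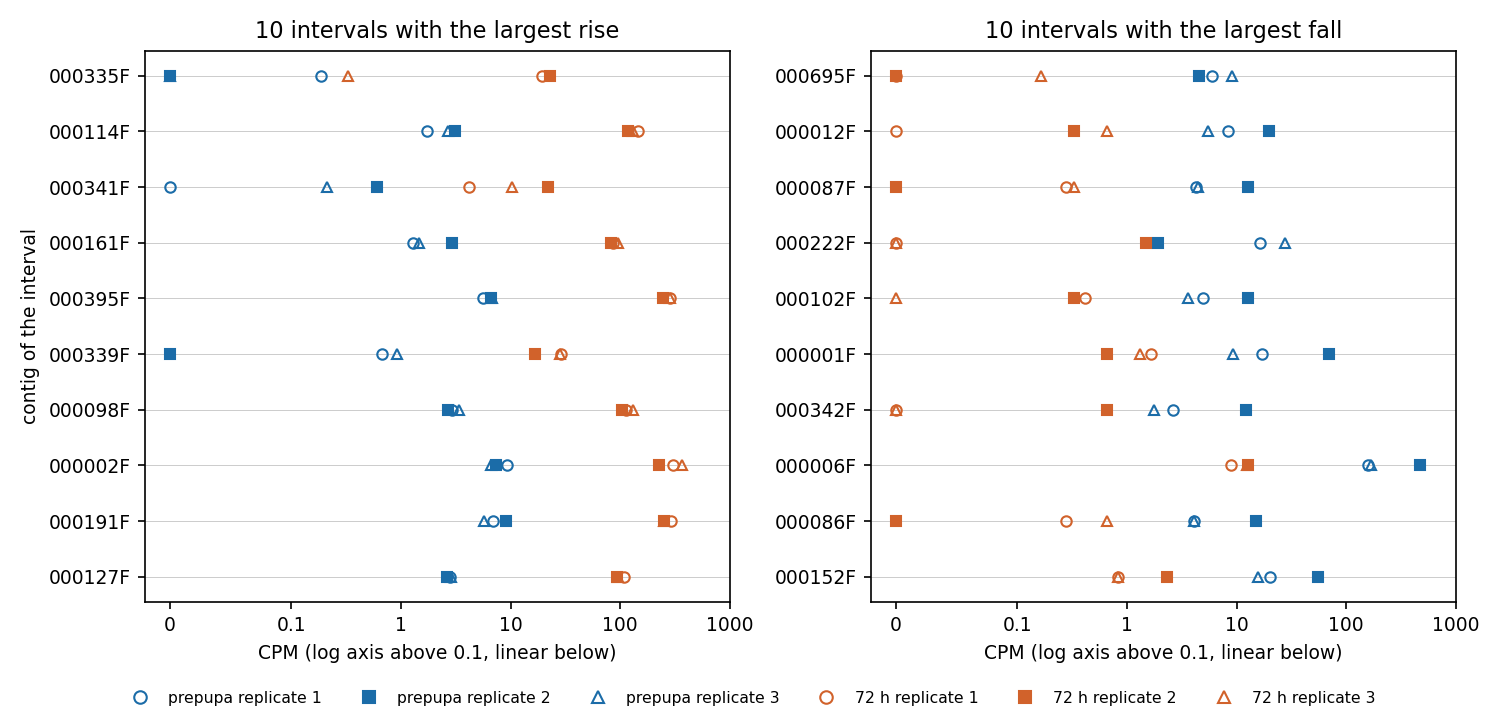
CPM on a log axis (linear below 0.1) in each prepupal and 72 h hindwing library at the 10 intervals with the largest rise (left) and the 10 with the largest fall (right), with symbols for the replicates. The intervals were chosen among those where the 2 groups do not overlap, and prepupal replicate 2 is the highest prepupal library at 8 of the 10 falls and at 4 of the 10 rises.

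The 10 largest falls included a strong peak of the prepupal hindwing and several weak ones. At 000006F, 3251397 to 3253740 (2344 bp), the prepupal libraries held 158.3, 472.1 and 169.0 CPM and the 72 h libraries 8.81, 12.7 and 12.3 CPM. Every prepupal library was far above every 72 h library, a log2 change of −4.56 (SE 0.44, adjusted p 4.04e-07 by edgeR). The 5th-instar mean of 16.8 and the 6 d mean of 15.2 CPM were as low as the 72 h mean of 11.3 CPM, so this peak was prominent in the prepupal libraries alone among the hindwing groups. Prepupal replicate 2 was 2.88 times the mean of replicates 1 and 3 there, and without it the log2 change was −3.86 and still called.

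At 000152F, 512085 to 512724, the prepupal libraries held 20.03, 55.2 and 15.5 CPM and the 72 h libraries 0.826, 2.30 and 0.821 CPM (log2 −4.52, SE 0.51, adjusted p 2.115e-06 by edgeR). At 000001F, 4658206 to 4659076, they held 17.0, 69.5 and 9.30 CPM against 1.65, 0.658 and 1.31 CPM (log2 −4.68, SE 0.62, adjusted p 1.402e-05 by edgeR). In both intervals the groups were separate, with prepupal replicate 2 at 3.11 and 5.29 times the mean of the other 2 prepupal libraries. Without it the log2 changes were −3.76 and −3.41, still called, and without 72 h replicate 2 the change at 000152F was −5.16.

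At 000222F, 662917 to 663213, the order of the prepupal libraries was the other way round, with 16.3, 1.90 and 27.4 CPM against 0, 1.48 and 0 CPM at 72 h. Prepupal replicate 2 there was close to 72 h replicate 2, and the log2 change was −4.99 (SE 0.91, adjusted p 5.121e-04 by edgeR). All 9 reads of the 72 h group came from replicate 2, and the fitted log2 change was −10.15 without it, −4.34 without 72 h replicate 1 and −4.26 without prepupal replicate 3. This interval was also high in the libraries labelled 6 d, with a mean of 26.5 CPM against 0.687 CPM in the 5th instar (log2 5.21, adjusted p 1.857e-04 by edgeR). At 000695F, 23298 to 23964, the prepupal libraries held 5.96, 4.50 and 9.09 CPM, and the 72 h libraries held a single read among them. The ratio of scaled read counts was 130, with a counting interval of 23.2 to 5164. That read was in 72 h replicate 3, without which the fitted log2 change moved from −6.65 to −8.93.

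Weak prepupal peaks made up the other 5 falls. At 000012F, 444123 to 444984, values of 8.35, 19.8 and 5.53 CPM became 0, 0.329 and 0.657 CPM. At 000086F, 1747817 to 1748095, values of 4.05, 14.9 and 4.13 CPM became 0.275, 0 and 0.657 CPM. Prepupal replicate 2 was the highest of its group in both, as it was at 000087F (1540462 to 1540753), 000102F (882061 to 882428) and 000342F (138030 to 138391), where the prepupal values were 1.75 to 12.7 CPM. The 72 h libraries at these last 3 held between 0 and 0.658 CPM. Without prepupal replicate 2 the log2 changes of these 5 intervals moved from −5.10 to −4.42 at 000012F, −4.55 to −3.67 at 000086F, −5.00 to −4.30 at 000087F, −4.69 to −3.98 at 000102F and −4.60 to −3.32 at 000342F. Leaving out 1 of the 72 h libraries, which held few reads there, gave values as far as −6.08 at 000012F, −5.54 at 000086F, −5.29 at 000102F and −8.64 at 000342F, and values as small as −4.46 at 000012F and −3.97 at 000342F. All 10 falls were also called without prepupal replicate 2. Between the 5th instar and 6 d, against 7.76% higher and 14.5% lower of all tested intervals, 2 of the 10 (000695F and 000222F) were called higher at 6 d and 4 (000102F, 000001F, 000342F and 000086F) lower.

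The largest differences in CPM fell on broad, strongly covered intervals, and there prepupal replicate 2 set much of the spread. The largest gain was at 000169F, 604310 to 606155 (1846 bp), with 186.8, 516.5 and 217.7 CPM in the prepupa and 1431, 1111 and 1191 CPM at 72 h. The groups were separate, and the change was 4.05-fold (log2 2.02, SE 0.45, adjusted p 0.0029 by edgeR). It was 6.15-fold (log2 2.62) without prepupal replicate 2. In the 5th instar this interval had a mean of 455.7 CPM, above the prepupal mean of 307 CPM, and at 6 d a mean of 137 CPM.

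At 000337F, 451947 to 453436, values of 164.0, 425.1 and 172.3 CPM became 1029, 806.5 and 729.8 CPM (log2 1.75, SE 0.43, adjusted p 0.0065 by edgeR). At 000177F, 520115 to 525331, values of 147.5, 358.4 and 154.5 CPM became 901.6, 722.7 and 792.3 CPM (log2 1.87, SE 0.42, adjusted p 0.0030 by edgeR). The change at 000337F went from 3.37-fold to 5.09-fold without prepupal replicate 2. Neither rise was called with loess offsets, where the log2 changes were 0.19 (adjusted p 0.229 by edgeR) and 0.33 (adjusted p 0.0512 by edgeR). The rise at 000337F was also not called with only the 6 libraries in the fit (log2 1.70, adjusted p 0.0531 by edgeR). Over all alternatives the adjusted p of edgeR or DESeq2 ran from 3.97e-06 to 0.229 at 000337F and from 2.03e-06 to 0.0512 at 000177F. The gains at 000090F, 277275 to 279876, and 000027F, 254158 to 255321, were larger in proportion. At 000090F, 50.2, 89.9 and 48.1 CPM became 655.4, 544.5 and 520.1 CPM (9.14-fold). At 000027F, 51.5, 124.2 and 42.7 CPM became 646.0, 527.7 and 491.8 CPM (7.63-fold, and 11.8-fold without prepupal replicate 2). Loess offsets lowered the log2 change at 000090F from 3.19 to 1.79 and that at 000027F from 2.93 to 1.77, both still called.

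The largest loss in CPM was at 000001F, 4594493 to 4598118 (3626 bp), with 278.0, 842.8 and 120.7 CPM in the prepupa and 50.5, 39.5 and 44.0 CPM at 72 h. The prepupal libraries differed widely among themselves but all exceeded the 72 h libraries, and the mean fell 9.26-fold (log2 −3.21, SE 0.51, adjusted p 1.099e-04 by edgeR). The log2 change was −2.15 without prepupal replicate 2. At 000139F, 1034427 to 1036218, values of 137.6, 344.9 and 122.7 CPM became 11.2, 7.57 and 17.1 CPM (log2 −4.08, SE 0.45, adjusted p 1.788e-06 by edgeR), and the log2 change was −3.45 without prepupal replicate 2. Like the strong peak of 000006F, which was also among the 5 largest losses, this interval was low in the 5th instar (10.8 CPM) and at 6 d (14.1 CPM).

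At 000047F, 983464 to 989531, values of 202.6, 561.6 and 224.6 CPM became 110.8, 120.9 and 78.0 CPM (log2 −1.67, SE 0.39, adjusted p 0.0045 by edgeR). This change was −1.05 on the log2 scale without prepupal replicate 2, and still called. The loss with the smallest fold among the 5, at 000032F, 2596813 to 2602680, was not called without that library. Its prepupal values were 232.6, 595.9 and 235.8 CPM and its 72 h values 188.2, 152.7 and 122.3 CPM (log2 −1.20, SE 0.38, adjusted p 0.031 by edgeR), and without prepupal replicate 2 the change was −0.60 and not called (adjusted p 0.084 by edgeR). The call was also lost without any one of the 72 h libraries (adjusted p 0.0606, 0.107 and 0.123 by edgeR), and over all alternatives of edgeR and DESeq2 the adjusted p ran from 1.11e-09 to 0.123.

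Some of the strongest intervals showed no called change. The 3 with the most reads among those whose estimated log2 change lay within 0.2 of 0 were on 000120F, 000005F and 000017F and spanned 4417 to 6046 bp. At 000120F, 1063769 to 1068601, the prepupal libraries held 209.8, 536.6 and 236.0 CPM and the 72 h libraries 298.8, 326.8 and 240.7 CPM. The 72 h values lay between the prepupal extremes, and both other prepupal libraries were below all 72 h libraries (log2 −0.18, SE 0.39, adjusted p 0.777 by edgeR). At 000005F, 179097 to 185142, and 000017F, 1835901 to 1840317, the log2 changes were −0.06 and −0.02, with SE 0.39 and 0.40. Without prepupal replicate 2 the estimates for the 3 intervals were 0.37, 0.53 and 0.53, none of them called. With loess offsets all 3 were called lower, by −1.64, −1.46 and −1.41 on the log2 scale, and with library totals alone 000120F was called lower by −0.63.

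Rises were more frequent in intervals that were dense in reads in the 5th-instar hindwing, and this order was not the same for density at 6 d. Density, in CPM per kb of interval, was measured in each of these groups, whose libraries are in neither group of the comparison; this grouping was chosen after values were seen. The 5th-instar classes are given first. Among the 60343 intervals under 5 CPM per kb, 9.03% rose to 72 h and 11.5% fell. Among the 53366 intervals of 10 to 20 CPM per kb, 16.3% rose and 4.22% fell. Of the 787 intervals of 100 CPM per kb or more, 360 (45.7%) rose and 52 (6.61%) fell. The rising share thus grew over these classes, from 9.03% to 45.7% against 12.9% for all intervals. Without prepupal replicate 2, 76.2% of the densest class rose and 4.96% fell. With library totals alone the densest class kept more rises (43.8%) than falls (14.1%), although falls were the majority overall. With loess offsets 26.3% of the densest class rose, still above the 12.6% of all intervals, while 28.6% fell. In classes of density at 6 d, 19.2% of the 45455 sparsest intervals rose and 4.55% fell. Rises made up 9.58% at 5 to 10, 15.9% at 10 to 20 and 50.3% at 20 to 50 CPM per kb (1177 of 2339 intervals), where 8.08% fell. Above that the classes were small: 30 of 79 intervals rose and 25 fell at 50 to 100 CPM per kb, and at 100 or more none of 22 rose and 10 fell.

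**Figure D2:**
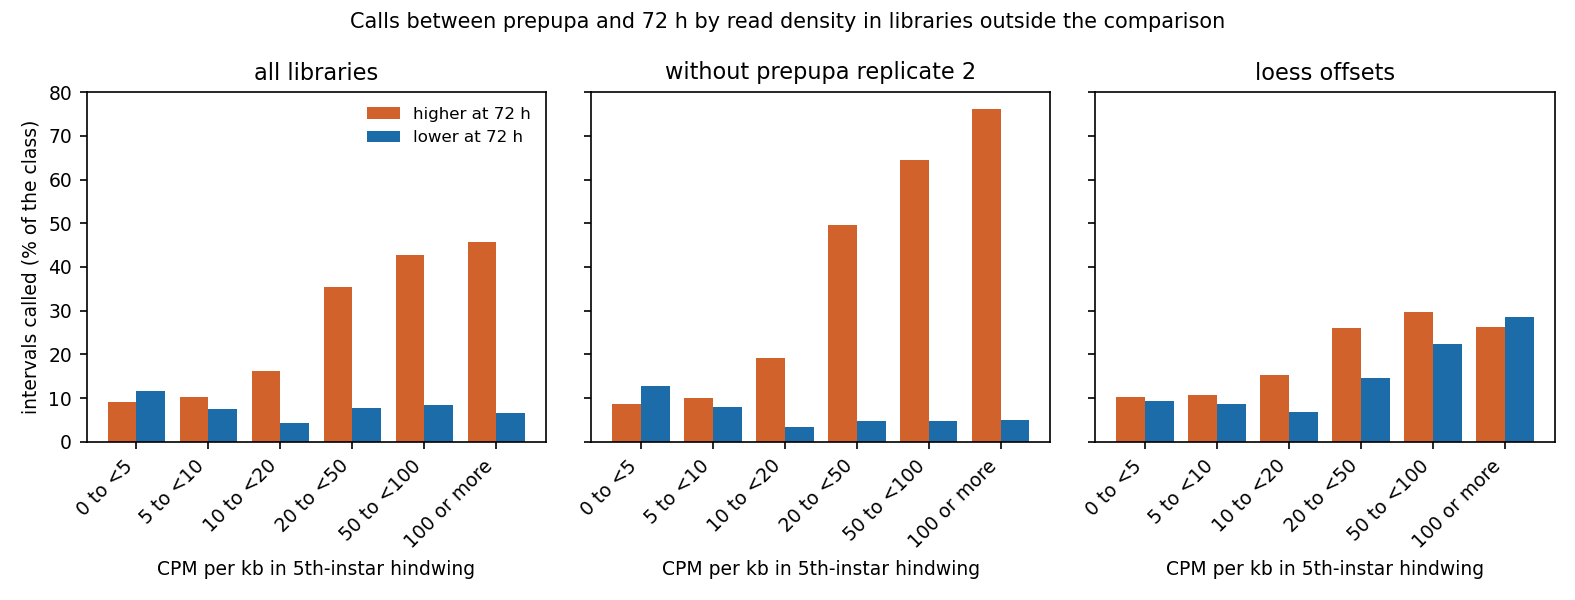
Percent of intervals called higher (orange) or lower (blue) at 72 h in classes of read density in the 5th-instar hindwing (CPM per kb), for all libraries, without prepupal replicate 2 and with loess offsets. The share that rose reached 45.7% in the densest class with all libraries and 76.2% without prepupal replicate 2, and with loess offsets 26.3% rose and 28.6% fell in that class.

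With TMM scaling, wide intervals rose more often than short ones over all tested intervals, but less often within the single level class examined. Among the 1096 intervals of at least 2000 bp, 23.5% rose and 19.8% fell, and among the 84688 intervals of 100 to 200 bp, 5.64% rose and 3.14% fell. With loess offsets the widest class turned to 7.39% higher and 63.2% lower. A split by width within a single level class was made with TMM scaling only, and its level comes from the same 6 libraries that made the calls. Within intervals that averaged 2 to 5 CPM over the 6 libraries, 33.4% of those under 200 bp rose and 0.159% fell. At the same level, 93 of the 171 intervals of 1000 bp or more (54.4%) fell and none rose. Short intervals of a given level are dense, and wide intervals of that level are sparse. The median standard error of the log2 change was 0.677 below 1 CPM, 0.334 at 5 to 20 CPM and 0.355 at 20 CPM or more.

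Most intervals that rose had their highest level of the 4 hindwing groups at 72 h, and most that fell had their lowest level there; both classes were chosen on the prepupal and 72 h libraries. The median over rising intervals of the group mean was 3.003 CPM in the 5th instar, 2.38 in the prepupa, 8.36 at 72 h and 2.37 at 6 d. For falling intervals it was 2.19, 3.42, 1.115 and 2.89 CPM. The 72 h group had the highest mean of the 4 hindwing groups at 93.7% of rises, and the lowest at 87.6% of falls. At intervals not called it was highest at 22.75% and lowest at 33.3%. At falls, the highest mean was in the prepupa for 47.3% and at 6 d for 41.2%, against 21.6% and 33.25% of intervals not called. The 72 h mean was at least 4-fold above both the 5th-instar and 6 d means at 5930 rises (17.7%). The prepupal mean was that far above both at 287 falls (1.43%), of which 000006F and 000139F are strong examples.

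The 5th-instar and 6 d libraries are in neither group, and their own comparison gives values that did not choose the intervals. Between the 5th instar and 6 d, 7.76% of the tested intervals were higher and 14.5% lower at 6 d by the same test. Among intervals that rose from prepupa to 72 h, 4.79% were higher and 30.1% lower at 6 d. Among those that fell, 21.0% were higher and 9.84% lower. Across intervals the 2 log2 changes had a Pearson r of −0.313, and −0.40 without prepupal replicate 2. Both changes come from one fit with a common estimate of spread, but no library is shared between them. The TMM factors were 1.056, 0.840 and 0.882 in the 5th instar and 1.247, 1.225 and 1.273 at 6 d. The 5th-instar factors were thus all below those at 6 d, as the 72 h factors were all below the prepupal ones. The part of library composition in these shares and in r was not tested. With library totals alone the shares moved to 13.9% higher and 25.1% lower among rises and 33.5% higher and 6.09% lower among falls, against 18.9% and 10.3% of all intervals.

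**Figure D3:**
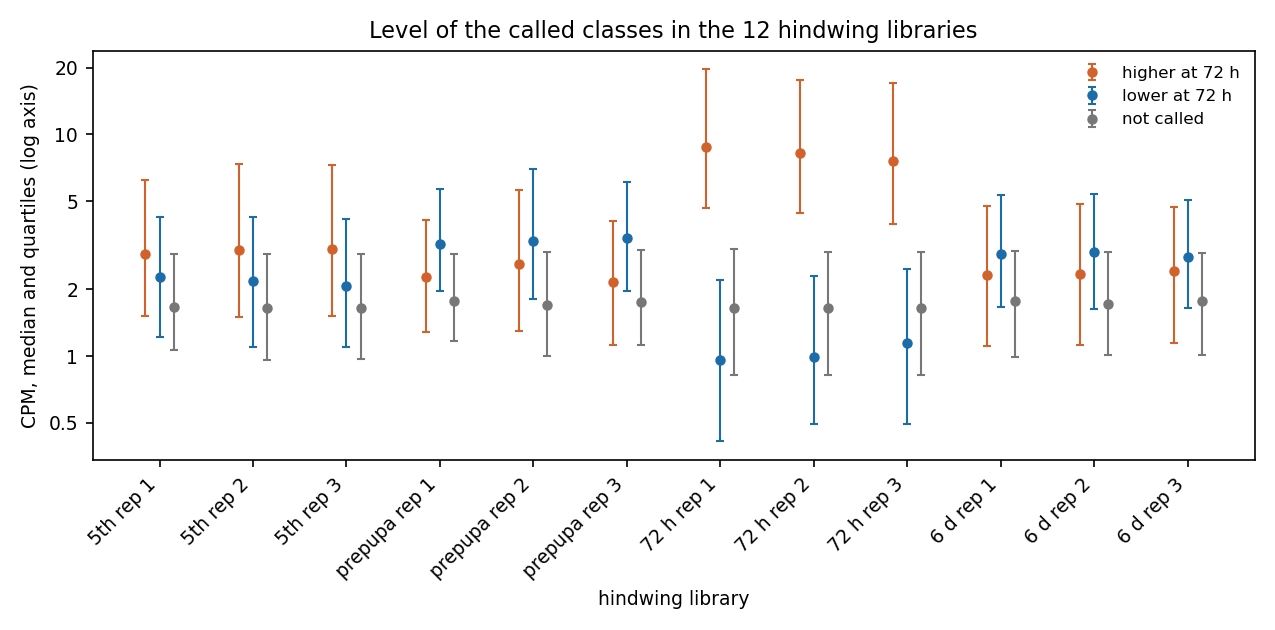
Median CPM (points) and quartiles (bars) over the intervals called higher, called lower and not called between prepupa and 72 h, in each of the 12 hindwing libraries, on a log axis. The intervals were called on the prepupal and 72 h libraries, so their separation there is the choice itself; in the 5th-instar and 6 d libraries the group medians of the rises were 3.003 and 2.37 CPM and those of the falls 2.19 and 2.89 CPM.

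Single libraries were also placed against calls made without them. Of the intervals called higher without prepupal replicate 1, that library lay nearer to its own group than to the 72 h group at 97.0%. The value was 97.0% for prepupal replicate 3 and 66.7% for prepupal replicate 2. For the 72 h libraries it was 91.3%, 90.2% and 78.8%. At intervals called lower, the values were 89.1%, 67.1% and 79.7% for the prepupal and 74.8%, 71.8% and 60.6% for the 72 h replicates. Prepupal replicate 2 was thus the prepupal library least often on its own side, and 72 h replicate 3 was that library in its group.

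Reads were wholly missing from one group at few of the tested intervals. No prepupal library had a read at 19 of them, of which 11 were called higher, and no 72 h library had one at 578, of which 346 were called lower. Of all tested intervals, 12.9% were called higher and 7.75% lower. These sets were picked for lacking reads in 1 group, and every 72 h library held fewer reads in total than every prepupal library. The part of depth in these counts was not tested. The following 2 were chosen after their values were seen. At 000247F, 550057 to 550599, the prepupal libraries held 3.87, 0.2001 and 7.83 CPM and the 72 h libraries no read. Of the 177 prepupal reads, 112 were in replicate 3. Against a floor of 3 reads over the 72 h group the level was 28.3-fold lower, and 16.03-fold lower without prepupal replicate 3. With the counting error of both groups allowed for (95%), it was at least 22.7-fold lower, and at least 12.7-fold without that replicate. At 000126F, 161188 to 161462, 72 h replicate 1 held 20.1 CPM and the other 5 libraries no read. This call rested on that library, without which both groups were at 0.

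Changes ran in the same direction in neighbouring intervals. Of adjacent tested intervals less than 200 bp apart and both called, 83.2% had the same direction, and of those 5000 to 20000 bp apart, 80.7%. The overall shares of rises and falls alone would give 53.1%. The first value was 84.6% without prepupal replicate 2. Of the rises, 40.9% stood in runs of 2 or more consecutive called intervals of one direction, and of the falls, 34.6%. Some such runs arise from the call rates alone (12.9% higher and 7.75% lower), and their share was not worked out. The longest rising run was 13 intervals on 000044F, 1659315 to 1669993, whose summed accessibility was 58.0, 79.0 and 56.0 CPM in the prepupa and 235.5, 263.1 and 258.0 CPM at 72 h. A run of 11 on 000173F, 92106 to 101804, went from 39.4, 51.1 and 38.2 CPM to 352.4, 299.8 and 285.6 CPM. The longest falling run was 12 intervals on 000078F, 1826867 to 1836663, with 162.4, 354.0 and 146.4 CPM in the prepupa and 49.4, 66.6 and 56.3 CPM at 72 h. The libraries of the groups were separate in all 3 runs, which were chosen for their length.

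Windows of 100 kb with at least 20 tested intervals numbered 3813. The median window had 11.1% of its intervals higher and 5.09% lower, and the 95th percentile of windows was 28.0% for the share higher and 23.3% for the share lower. The window with the largest rising share was 000238F, 500001 to 600000, where 42 of 65 intervals rose and none fell. Its summed accessibility was 136.7, 137.0 and 143.3 CPM in the prepupal libraries and 729.4, 677.4 and 604.5 CPM at 72 h. Prepupal replicate 2 was level with the other prepupal libraries in this window, and the 5th-instar and 6 d means were 164 ± 10.98 and 200.2 ± 5.8 CPM (SD, n = 3). A second window of the same contig, 300001 to 400000, had 48 of 82 intervals higher and none lower, with 265.1, 489.7 and 263.7 CPM in the prepupa and 1869, 1445 and 1744 CPM at 72 h. On 000067F, 1300001 to 1400000, 13 of 21 intervals rose.

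The 3 windows with the largest falling shares had less signal than both 000238F windows. On 000082F, 300001 to 400000, 11 of 20 intervals fell and none rose, and the estimated log2 change was below 0 at all 20. Its summed values were 60.7, 48.9 and 98.1 CPM in the prepupa and 37.6, 10.9 and 27.8 CPM at 72 h. On 000072F, 1900001 to 2000000, 18 of 34 intervals fell, and on 000165F, 1100001 to 1200000, 11 of 21 did. With library totals alone, the first 000238F window had 40 intervals called higher and 1 lower, the second had 38 higher and the 000067F window 7 higher, and the falling windows had 15, 31 and 18 falls.

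**Figure D4:**
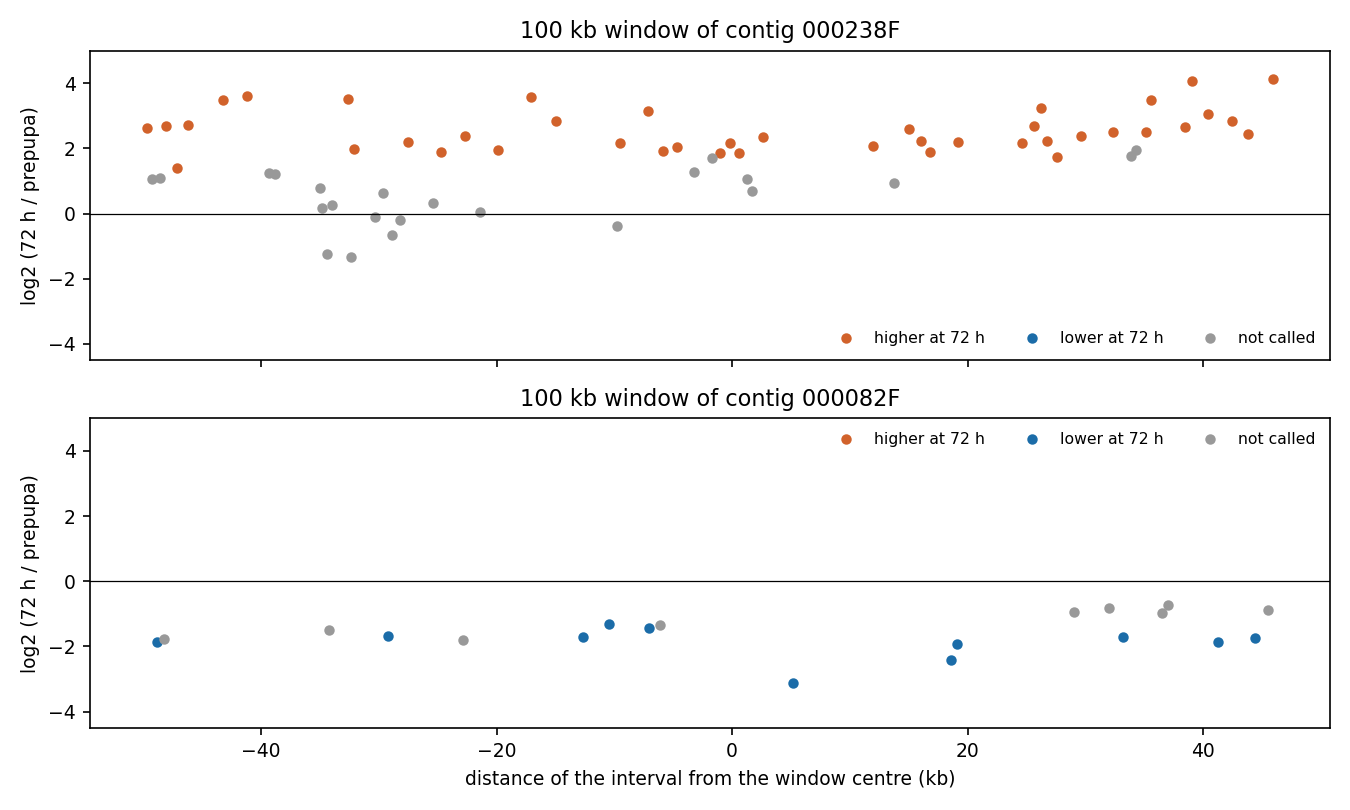
Log2 change from prepupa to 72 h of each tested interval against its distance from the window centre (kb), for the 100 kb windows with the largest share of rises (top, contig 000238F) and of falls (bottom, contig 000082F). In the upper window 42 of 65 intervals were called higher and none lower, and in the lower window 11 of 20 were called lower and none higher.

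Of the 3813 windows, 458 had 5 or more rises and no fall, 82 had 5 or more falls and no rise, and 1049 had at least 5 of each. Among the 351 contigs with at least 50 tested intervals, the median contig had 12.1% higher and 6.20% lower. The largest falling share was on 000214F, where 148 of 394 intervals fell and 3 rose. Its summed accessibility was 1271, 1353 and 1387 CPM in the prepupa and 649.0, 714.3 and 749.1 CPM at 72 h, while the 5th-instar and 6 d means were 1377 and 1475 CPM. The 72 h libraries were thus below the libraries of all 3 other hindwing groups over this contig. On 000216F, 121 of 329 intervals fell and 10 rose, from 909.7, 916.1 and 1050 CPM to 636.2, 564.9 and 583.1 CPM. The 5th-instar mean there, 665.2 CPM, was near the 72 h mean of 594.7 CPM, and the 6 d mean of 936.3 CPM was near the prepupal mean of 958.6 CPM.

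The contigs with the largest rising shares were 000353F, with 23 of 58 intervals higher, and 000606F, with 35 of 89 higher, and neither had a fall. On 000606F the summed values were 131.3, 116.8 and 122.0 CPM in the prepupa and 271.3, 305.9 and 244.8 CPM at 72 h. On 000353F they were 71.3, 88.3 and 51.1 CPM against 168.5, 158.8 and 160.3 CPM. The 6 d means were lower than any prepupal library on both contigs, at 67.4 and 34.4 CPM. With library totals alone, 15 intervals of 000606F were higher and none lower, 13 of 000353F were higher and 2 lower, and 267 of 000214F and 206 of 000216F were lower.

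**Figure D5:**
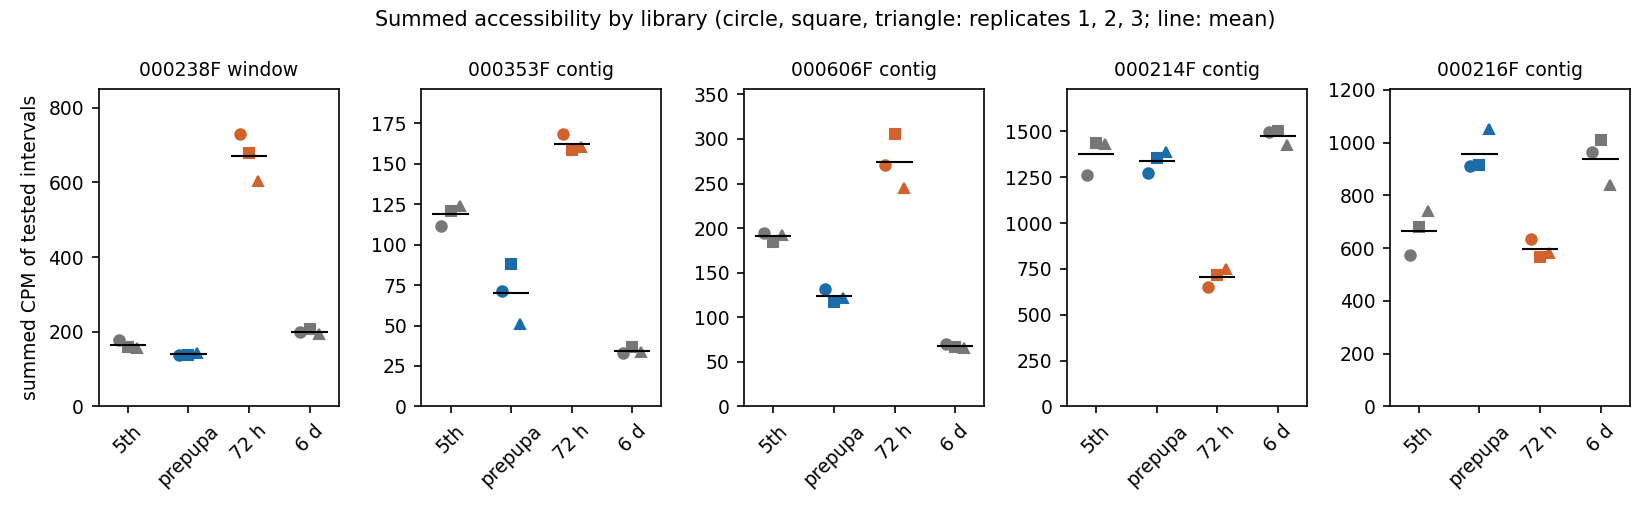
Summed CPM of the tested intervals in each hindwing library (circle, square and triangle for replicates 1 to 3, line for the mean) in the 100 kb window of 000238F with the largest rising share and on the 4 contigs with the largest rising (000353F, 000606F) or falling (000214F, 000216F) shares. The 72 h libraries stand above all others in the 000238F window, with a mean of 670.4 CPM, and below all others on 000214F, with a mean of 704.1 CPM.

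The forewing gave values for the same positions from other libraries. A forewing interval with a reciprocal overlap of at least 80% was found for 22851 of the rises (68.4%) and 8403 of the falls (41.9%), and for 45.1% of all tested intervals. At the matched rises the median forewing level was 2.97 CPM in the 5th instar, 2.18 in the prepupa, 2.51 at 72 h and 7.97 at 6 d. At the matched falls it was 2.31, 3.18, 2.97 and 1.63 CPM. The forewing group that was high at hindwing rises and low at hindwing falls was therefore the one labelled 6 d. All 8 of the 10 largest rises that had a forewing match were highest in the forewing at 6 d, among them 000395F with 259.4 CPM at 6 d and 7.51 CPM at 72 h. Of the 3 largest falls with a match, 2 had their highest forewing level at 72 h and 1, 000222F, in the prepupa. The strong hindwing loss at 000001F, 4594493 to 4598118, had its highest forewing level at 72 h, with a mean of 692.4 CPM against 22.4 CPM in the prepupal forewing.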

How the data were processed

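ATAC-seq read counts per interval, not normalized, were deposited by the authors in one table per wing. Bowtie2 and deepTools are named, per the submitters' processing notes, without versions or roles. No source used here gives the genome build, the peak caller, the handling of duplicates or any transposase shift. Duplicates left in the counts would lower their precision, and the authors' interval edges decide which reads are counted. Counts of 8183863 to 14795457 per library were analysed.

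Intervals were kept by filterByExpr (minimum count 10, total 15) and tested by quasi-likelihood F test in edgeR (version 4.0.16, with limma 3.58.1, under R 4.3.3) after TMM scaling, over the 12 hindwing libraries in one fit of spread. Adjusted p-values are Benjamini-Hochberg values over all tested intervals, and calls are at 0.05. CPM is TMM-scaled. Intervals named as changed by rule were called, reached a mean of 5 CPM in either group and had libraries that did not overlap between the groups. They were the 10 largest log2 changes and 5 largest CPM differences each way. The 3 strongest steady intervals were not called, and 3 windows and 2 contigs each way were named by their share of calls. The intervals at 000247F and 000126F were chosen outside this rule, after their values were seen. The intervals, rules and groupings were chosen with earlier results of these data known. Alternatives were other scalings, filters, DESeq2 1.42.0, a 1.5-fold threshold, a replicate block and leaving out each library. The fit was tested on simulated counts of 20000 intervals, 100 of them changed at each fold size. There 68% of 4-fold and 6% of 2-fold changes were called, and 2.63% of the calls were false. Apart from these changes the simulated libraries shared a common mean profile, with no composition difference between groups and no outlying library. A far smaller share of intervals changed than was called in the data, so these rates need not hold for the data. No table column was left unmapped. Sequences were not used here.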

Additional observations from a re-analysis of the deposited data

Results flagged for a closer look

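At 7 of the named intervals the hindwing and the matched forewing moved in opposite directions between the libraries labelled prepupa and 72 h, with all 3 libraries of one group above all 3 of the other in both wings. Other named intervals moved in the same direction in both wings, again without overlap of the groups in either wing. These were 000161F, 000169F, 000337F, 000177F and 000027F, higher at 72 h, and 000222F, lower at 72 h. The difference between the wings was not tested, and 17 of the 31 named changed intervals had a forewing match. The stage labels of the wings did not line up over all matched intervals, and the part of that in these values was not tested. At 4 intervals the hindwing rose and the forewing fell. The mean at 000335F went from 0.0614 to 14.2 CPM in the hindwing and from 1.48 to 0.222 CPM in the forewing. The forewing groups were barely separate there, with the lowest prepupal library at 0.5198 CPM and the highest 72 h library at 0.4666 CPM. At 000339F it went from 0.528 to 24.7 CPM in the hindwing and from 4.30 to 0.773 CPM in the forewing. At 000191F the hindwing went from 7.21 to 263.4 CPM and the forewing from 12.4 to 5.60 CPM. At 000127F the hindwing went from 2.77 to 98.9 CPM and the forewing from 4.27 to 2.60 CPM. The forewing groups were close here too, with the lowest prepupal library at 3.616 CPM and the highest 72 h library at 3.399 CPM. In the forewing libraries labelled 6 d, the means at these 4 intervals were 11.7, 21.1, 244.5 and 92.4 CPM in the same order, near the 72 h hindwing means.

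At 3 intervals the hindwing fell and the forewing rose. The hindwing mean at 000012F went from 11.2 to 0.329 CPM and the forewing mean from 5.12 to 15.98 CPM. At 000102F the hindwing went from 7.06 to 0.247 CPM and the forewing from 0.949 to 4.43 CPM. At 000001F, 4594493 to 4598118, the hindwing went from 413.8 to 44.7 CPM and the forewing from 22.4 to 692.4 CPM. In the forewing libraries labelled 6 d, the means at these 3 intervals were 1.24, 0.956 and 38.9 CPM in the same order.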

How the results depend on the processing

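The 33430 rises became 15712 when at least 50 counts in 3 libraries were required, 21926 with a test against a 1.5-fold change, and 20302 with library totals alone. The 20055 falls became 8522 and 62784 under the last 2 of these. Leaving out each library in turn gave 22933 to 38559 rises and 11071 to 21150 falls. Rises were 62.5% of the calls, 49.8% with the 50-count filter, 69.2% with DESeq2 (33489 of 48378), 72.0% with the 1.5-fold test and 24.4% with library totals alone.

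Among rises, the share higher at 6 d than in the 5th instar moved from 4.79% to 13.4% with the 50-count filter, 2.29% with the 1.5-fold test and 13.9% with library totals alone. Among falls it moved from 21.0% to 44.9%, 11.7% and 33.5% in the same order, and among all tested intervals from 7.76% to 26.0%, 3.37% and 18.9%. The share of falls that were lower at 6 d moved from 9.84% to 16.6% with the 50-count filter and 6.09% with library totals alone (all tested intervals 14.5%, 27.4% and 10.3%), and was 6.38% to 17.1% when a library was left out. The share of rises that were lower at 6 d was 30.1%, and 37.2% with the 50-count filter, against 14.5% and 27.4% of all tested intervals. The causes were not tested.

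Under the replicate block 32211 intervals rose and 17660 fell. The deviations of same-numbered prepupal and 72 h hindwing libraries correlated at −0.017, −0.041 and 0.007. These values show no pairing by number between these groups, and pairing within other groups or between the wings was not tested. When each library was left out, the fitted log2 change at 000126F ran from 0.000 without 72 h replicate 1 to 9.58 without 72 h replicate 2. DESeq2, the other scalings, the filters and the block gave no reversed direction for a named changed interval. Depth limits the weak intervals, whose standard errors were larger.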
